A study of Mus musculus with 16 samples.

Results

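The sort gap of a gene is used here for the difference in its log2 level between liver cells carrying both the MIC1-1C3 antigen (M) and CD133, the product of Prom1, and liver cells carrying neither. The question was how this gap differed between livers of mice fed DDC (3,5-diethoxycarbonyl-1,4-dihydrocollidine) and untreated livers, which is the interaction of sort and DDC: the gap after DDC minus the gap without it. All 14 samples of the series entered, on 16 arrays. Untreated livers gave 4 M+133+ samples (5 arrays) and 2 M-133- samples (3 arrays), and livers of DDC-fed mice gave 4 samples of each sort on 1 array each. The arrays lay on 5 slides, and no slide held both DDC sorts. Every mouse was of the c129/S3 strain from Jackson on a Purina diet, and the DDC groups received 0.1% (w/w) DDC in the food for 2 weeks. Nonparenchymal cells were freed with Accutase and sorted by flow cytometry, so each sample is a bulk RNA pool of sorted cells. The design text calls the samples biological replicates. The labels used here do not give age, sex or whether livers were pooled.

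MIC1-1C3 and CD133 are antigens of bile duct cells, the epithelium that lines the channels draining bile from the liver. DDC inhibits heme synthesis and leads to porphyrin plugs in bile ducts, and the liver answers with a ductular reaction, in which duct-like cells multiply at the portal tracts amid stellate cells, fibroblasts and inflammatory cells. Cells without either antigen are a mixture of whatever else the isolation released: endothelium, macrophages, stellate cells (pericytes of the sinusoid that store vitamin A) and residual hepatocytes. A gap between the sorts can narrow because either sort moves, and in bulk samples a lower share of a cell type and less RNA per cell cannot be told apart.

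Levels are log2 signals relative to the 75th percentile of the array, so 0 is a signal at that percentile and a difference of 1 is 2-fold. Across the arrays the 75th percentile lay at 602.8 to 2732.2 intensity units, and 60.3 to 77.3% of spots were well above background. The 2 lowest percentiles were both of M-133- untreated arrays: 602.8 for the only array of sample 1 and 705.9 for 1 of the 2 arrays of sample 2. Prom1 itself bore out the sort labels: its levels were 1.72, 1.82, 1.13 and 1.67 in M+133+ untreated samples 1 to 4, -7.74 and -8.35 in M-133- untreated samples 1 and 2, 0.81, 1.88, 2.23 and 1.10 in M+133+ DDC samples 1 to 4, and -7.32, -3.52, -6.43 and -8.63 in M-133- DDC samples 1 to 4. Values below are given in this order of groups and samples. All 8 M+133+ samples lay above all 6 M-133- samples, and Prom1 was above background on none of the M-133- untreated arrays and on 1 of the 4 M-133- DDC arrays. Its gap was 9.63 without DDC, of which 7.55 is a lower bound set by the background, and 7.98 after DDC. The interaction of -1.65 (95% interval -4.61 to 1.32) did not pass the threshold (limma, adjusted p = 0.747).

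Few genes passed the threshold for a gap that differed by treatment, which does not show that the other gaps were equal. With limma, 60 of 23314 genes (0.257%) had an interaction at an adjusted p under 0.05, and 2328 (9.99%) at an unadjusted p under 0.05. The gap was lower after DDC for 46 of the 60 (0.197% of all genes tested) and higher for 14 (0.06%), whereas at the unadjusted p it was lower for 865 and higher for 1463. The sort gap itself was called for 2050 genes without DDC (8.79%; 3.63% higher and 5.16% lower in M+133+ cells) and for 3011 after DDC (12.9%; 6.44% and 6.48%). Of the 46 lower gaps, 19 narrowed towards 0 from a higher level in M+133+ cells, 23 changed sign and 4 widened below 0. Of the 14 higher gaps, 1 narrowed, 11 changed sign and 2 widened. Over all genes tested 30.7% narrowed, 31.8% widened and 37.6% changed sign, so a change of sign alone is common among gaps near 0. Both gaps were called, with opposite signs, for 6 genes, of which 5 had a called interaction.

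The larger movement was mostly in the cells without the antigens. For all 46 genes with a lower gap, the mean level in M-133- cells was higher after DDC, and for 43 of them that DDC difference exceeded the one in M+133+ cells. For all 14 genes with a higher gap, the mean in M-133- cells was lower after DDC, and for 10 of them that was the larger difference. The DDC difference within M-133- cells was itself called, upwards, for 41 of the 46 and, downwards, for 8 of the 14, beside 1.02% of all genes (0.613% higher and 0.403% lower). Within M+133+ cells it was called for 3 of the 46 and 3 of the 14, beside 0.24% (0.146% higher and 0.0944% lower). These counts share samples with the interaction and add no separate evidence. The median interaction over all genes was 0.38, with this scaling, and -0.16 when arrays were scaled by their median, which called 5 higher gaps and made 90.6% of calls lower ones against 76.7% here. Leaving out one sample at a time gave 18 to 105 calls. The count was 105 without M-133- untreated sample 2, when 28.6% were lower gaps, and 34 without M-133- untreated sample 1. It was 28, 23, 21 and 18 without M+133+ untreated samples 1, 2, 3 and 4, respectively, 38 and 22 without M+133+ DDC samples 1 and 4, and 37 without M-133- DDC sample 1.

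**Figure D1:**
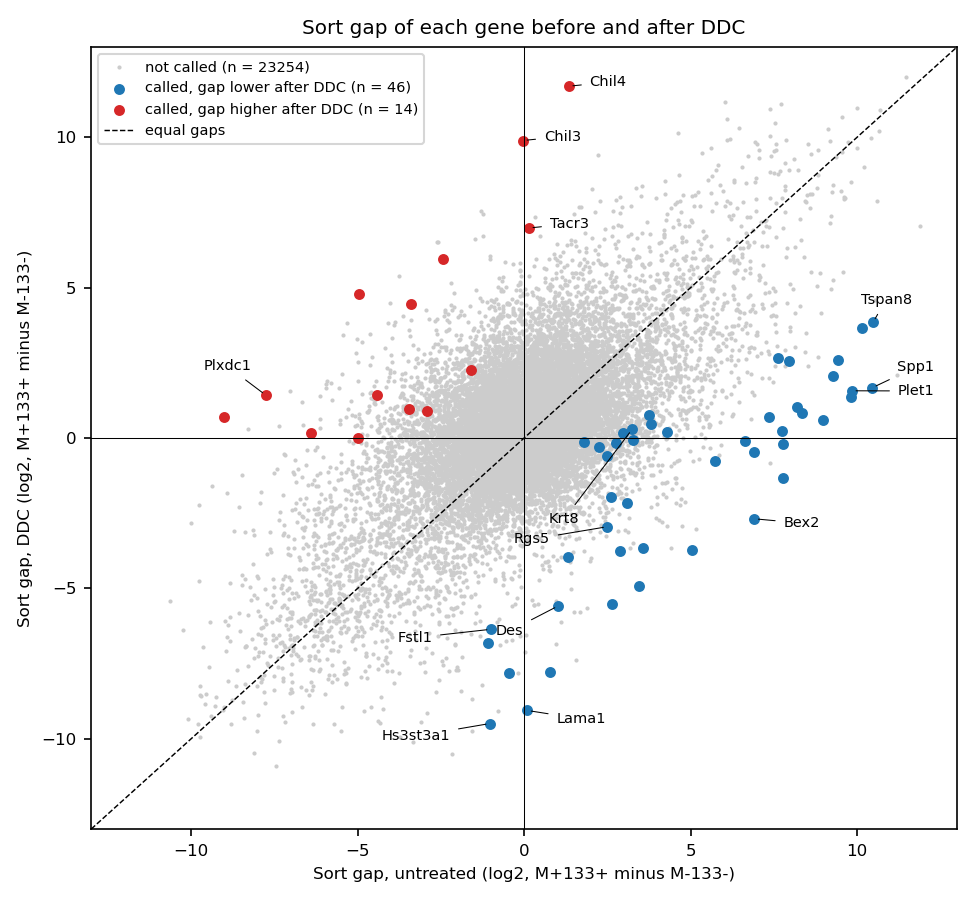
Sort gap (M+133+ minus M-133-, log2) of each of 23314 genes without DDC on the horizontal axis and after DDC on the vertical axis; the dashed line marks equal gaps, grey points are genes not called, and coloured points are the 46 genes with a lower and the 14 with a higher gap after DDC. Plet1, Spp1 and Tspan8 sit far right and below the dashed line, Lama1 and Hs3st3a1 near the vertical axis at about -9, and Chil3 and Chil4 near the vertical axis at 9.89 and 11.70.

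The probes through which the genes at the centre of these results were read are 60 bases long, and their positions are given on build mm9 as in the array annotation. The first 3 report epithelial genes whose gap narrowed, the fourth a basement membrane gene that appeared in M-133- cells after DDC, and the last 2 neighbouring chitinase-like genes that appeared in M+133+ cells after DDC. The Plet1 probe lies at chr9:50313107-50313166 on the plus strand, the Spp1 probe at chr5:104869788-104869847 (plus), the Krt8 probe at chr15:101827346-101827405 (minus), the Chil3 probe at chr3:105950485-105950544 (minus). The Lama1 probe spans chr17:68167016-68167978 (plus) and the Chil4 probe chr3:106006764-106007043 (minus), 963 and 280 bases of genome for 60 bases of probe. Capitals mark the longest run of letters that the Chil3 and Chil4 probes share, 6 bases; aligned end to end they are identical at 11 of 60 positions, so the sequences of this pair are distinct.
Plet1: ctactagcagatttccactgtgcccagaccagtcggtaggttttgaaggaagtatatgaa
Spp1: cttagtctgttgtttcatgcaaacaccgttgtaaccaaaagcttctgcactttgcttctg
Krt8: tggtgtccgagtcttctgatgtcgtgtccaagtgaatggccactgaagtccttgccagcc
Lama1: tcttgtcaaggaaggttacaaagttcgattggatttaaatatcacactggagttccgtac
Chil3: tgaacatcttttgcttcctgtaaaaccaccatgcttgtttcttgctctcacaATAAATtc
Chil4: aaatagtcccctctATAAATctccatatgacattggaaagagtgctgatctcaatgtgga

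The lowest adjusted p of all genes was that of Plet1, whose gap narrowed. Plet1 encodes a membrane-anchored glycoprotein of epithelial progenitors. Its levels were 5.18, 5.45, 5.48 and 5.64 in M+133+ untreated cells, -4.04 and -4.77 in M-133- untreated cells, 5.19, 4.98, 4.97 and 4.82 in M+133+ DDC cells, and 4.09, 2.60, 3.36 and 3.63 in M-133- DDC cells. M+133+ cells were alike with and without DDC, and every M-133- DDC sample lay far above both M-133- untreated samples, yet below every M+133+ sample. The gap was 9.84 without DDC (919-fold) and 1.57 after it (2.97-fold), an interaction of -8.27 (SE 0.52, limma adjusted p = 2.51e-06). In M-133- cells the level rose 227-fold. A second Plet1 probe gave -7.99. Plet1 was the only gene called in each of the 29 alternative analyses, with a highest adjusted p of 0.0158.

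Spp1, which encodes osteopontin, a secreted phosphoprotein made by bile duct cells and by some macrophages, followed the same course with more spread. Spp1 levels were 5.69, 5.65, 5.91 and 6.40 in M+133+ untreated cells, -6.29 and -2.79 in M-133- untreated cells, 6.39, 5.62, 5.82 and 5.82 in M+133+ DDC cells, and 5.56, 3.24, 3.06 and 5.09 in M-133- DDC cells. The M-133- samples did not overlap between treatments, and the M+133+ samples did. Its gap of 10.46 (1405-fold) became 1.67 (3.19-fold), an interaction of -8.78 (SE 1.04, limma adjusted p = 0.00206).

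Tspan8, a tetraspanin of secretory epithelia, kept more of its gap. Tspan8 levels were 5.49, 5.33, 5.08 and 5.31 in M+133+ untreated cells, -4.16 and -6.20 in M-133- untreated cells, 6.88, 5.52, 5.68 and 6.10 in M+133+ DDC cells, and 3.68, 0.73, 0.61 and 3.77 in M-133- DDC cells. The M-133- DDC samples fell into a higher and a lower pair, all above the untreated ones and below every M+133+ sample. The gap narrowed from 10.48 to 3.85, an interaction of -6.63 (SE 1.10, limma adjusted p = 0.0235). That call was lost without any 1 of M+133+ untreated samples 1 to 4, M-133- untreated sample 2 or M+133+ DDC sample 4.

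Ifi27l2b, a member of the interferon-inducible Ifi27 family of small membrane proteins, and Sprr1a, a cornified-envelope precursor induced by injury and stress, rose in M-133- cells after DDC. Ifi27l2b levels were 2.68, 2.60, 1.51 and 2.40 in M+133+ untreated cells, -5.01 and -5.09 in M-133- untreated cells, 4.28, 3.81, 4.18 and 3.59 in M+133+ DDC cells, and 3.63, 2.95, 3.12 and 3.39 in M-133- DDC cells. The 2 DDC groups overlapped, and the interaction was -6.65 (SE 0.60, limma adjusted p = 0.000161). Sprr1a levels were 2.96, 2.29, 0.38 and 1.65 in M+133+ untreated cells, -7.64 and -7.55 in M-133- untreated cells, 6.22, 4.64, 5.00 and 5.50 in M+133+ DDC cells, and 3.61, 1.55, 3.69 and 2.07 in M-133- DDC cells. Like Ifi27l2b, Sprr1a rose in both sorts. Its M-133- DDC samples all stayed below every M+133+ DDC sample, with a gap of 2.61. It was not well above background on any M-133- untreated array, so its untreated gap was at least 221-fold and the interaction, fitted at -6.81 (limma adjusted p = 0.00934), is bounded by -5.18. The first number is the fitted value and the second the bound against the background floor of the arrays, as for all bounds below.

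Of the keratins of simple epithelia, Krt8 and Krt18 lost their gap by a rise in M-133- cells. They encode the filament pair of hepatocytes and duct cells. Krt8 levels were 5.65, 5.60, 5.64 and 5.72 in M+133+ untreated cells, 2.52 and 2.30 in M-133- untreated cells, 7.00, 5.73, 5.92 and 6.35 in M+133+ DDC cells, and 6.09, 5.08, 6.62 and 6.06 in M-133- DDC cells. The sorts were far apart without DDC and overlapped after it. The Krt8 gap went from 3.24 to 0.29 (interaction -2.96, SE 0.49, limma adjusted p = 0.0235), and a second probe gave -3.20. Krt18 levels were 6.03, 5.77, 5.88 and 6.31 in M+133+ untreated cells, 4.47 and 3.90 in M-133- untreated cells, 6.68, 5.84, 5.89 and 6.07 in M+133+ DDC cells, and 6.44, 5.79, 6.34 and 6.46 in M-133- DDC cells. Here too the sorts overlapped only after DDC, and the gap went from 1.81 to -0.14 (interaction -1.95, SE 0.36, limma adjusted p = 0.0379). Krt23, a keratin of duct cells and injured liver, had a gap of 7.75 that became 0.23 (interaction -7.52, limma adjusted p = 0.0398), with the untreated M-133- samples far apart at -1.50 and -6.08. Without a single sample, Krt8 remained called in 7 of 14 fits, Krt23 in 3 and Krt18 in 2.

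By the probes used, the gaps of Tmsb10, Enah, Tm4sf4, Ddr1, Map2, Rab27b and Bex1 narrowed among the other called genes. Those of Osbpl3 and Bex2 changed sign. Tmsb10, an actin-sequestering thymosin, had levels of 4.24, 4.32, 4.45 and 4.41 in M+133+ untreated cells, 1.54 and 1.25 in M-133- untreated cells, 4.52, 4.53, 4.79 and 4.09 in M+133+ DDC cells, and 4.80, 4.45, 4.23 and 3.81 in M-133- DDC cells. Its untreated sorts stood apart and its DDC sorts overlapped, with an interaction of -2.80 (SE 0.41, limma adjusted p = 0.00963). Enah, an actin regulator at cell edges, went from a gap of 9.82 to 1.37, but its 2 other probes gave smaller interactions of -2.38 and -1.17 than the -8.45 of the probe used. Tm4sf4, a tetraspanin-like protein of liver and intestine, had an interaction of -3.35 and the collagen receptor Ddr1 of -5.40, both from a narrowing gap. The microtubule-associated Map2, the oxysterol-binding protein gene Osbpl3 and the secretory GTPase Rab27b were below background in untreated M-133- cells, and their interactions of -8.38, -9.09 and -6.47 are bounded by -6.70, -7.50 and -5.54. The Osbpl3 gap was 7.77 without DDC and -1.33 after it. By another kept Osbpl3 probe the gap was 6.87 and then 3.06, with no change of sign (interaction -3.81). Another kept Rab27b probe gave an interaction of -1.32, and further kept Map2 probes gave -5.67, -9.08 and -4.56. Bex1 and Bex2, small adaptor proteins found in progenitor and neural cells, had interactions of -7.16 and -9.60, the latter bounded by -8.57. The Bex2 gap was 6.91 and then -2.68.

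Members of the bile duct list differed among themselves. Of 25 tested genes on a list of bile duct markers, 2 (Spp1 and Tspan8) had a called interaction, both lower, against 0.197% of all genes. Before adjustment 5 were lower and 2 higher, beside 865 and 1463 of all 23314 genes. The same all-gene counts stand beside those before adjustment for the lists below. The median gap of the list was 5.66 without DDC and 4.57 after it, and the median interaction was -0.61, beside 0.38 over all genes. Of the 25, 14 gaps narrowed and 11 widened. Epcam, the adhesion molecule of duct epithelium, had a gap of 10.19 without DDC and 9.02 after it, an interaction of -1.18 (95% interval -3.16 to 0.80). Krt19, the classical duct keratin, had gaps of 8.54 and 9.78 (interaction 1.24, interval -0.97 to 3.46). The lower limits of both intervals lie above the interactions of Plet1 and Spp1, but a p that misses the threshold does not show that the gaps were equal. The duct transcription factor Sox9 lay between, with a gap of 5.18 that was 1.98 after DDC (interaction -3.20, limma adjusted p = 0.158). Pkhd1, which encodes the ciliary protein fibrocystin, had gaps of 8.63 and 8.10.

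On a list of 30 keratin and junction genes, 3 had a called interaction (Krt8, Krt18 and Krt23), all lower, against 0.197% of all genes, and before adjustment 8 were lower and 2 higher. The median gap of the list was 4.42 without DDC and 2.79 after it. The tight-junction claudins Cldn7 and Cldn8 had gaps of 8.49 and 9.37 without DDC, and of 8.07 and 9.35 after it. Dsg2, a desmosomal cadherin, had an interaction of -3.90 (limma adjusted p = 0.0984) and the epithelial cadherin gene Cdh1 one of -2.53 (limma adjusted p = 0.357).

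List sums here and below are the log2 of summed linear signals, so the brightest members weigh most. For the duct list, 3 members had a DDC difference in M-133- cells called higher and 0 lower, beside 0.613% and 0.403% of all genes. The list median of that difference was 0.44, beside -0.36 over all genes. The duct sum in M-133- cells was 6.74 and 7.27 without DDC and 5.96 to 7.21 after it. Of the 25 members, 21 and 24 were above background on at least 1 array of the group. In M+133+ cells the sum was 8.31 to 8.51 and 8.24 to 9.62, with all 25 members above background. For the junction and keratin list the sum in M-133- cells was 5.92 and 6.03 without DDC and 7.12 to 8.11 after it, with 27 and 28 of 30 members above background. The sum over 24 secreted hepatocyte proteins was 9.64 and 10.48 in untreated and 9.47 to 10.29 in DDC M-133- cells, against 7.03 to 7.86 and 7.15 to 8.14 in M+133+ cells. The part of cell composition in the Plet1, Spp1 and keratin results was not tested.

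**Figure D2:**
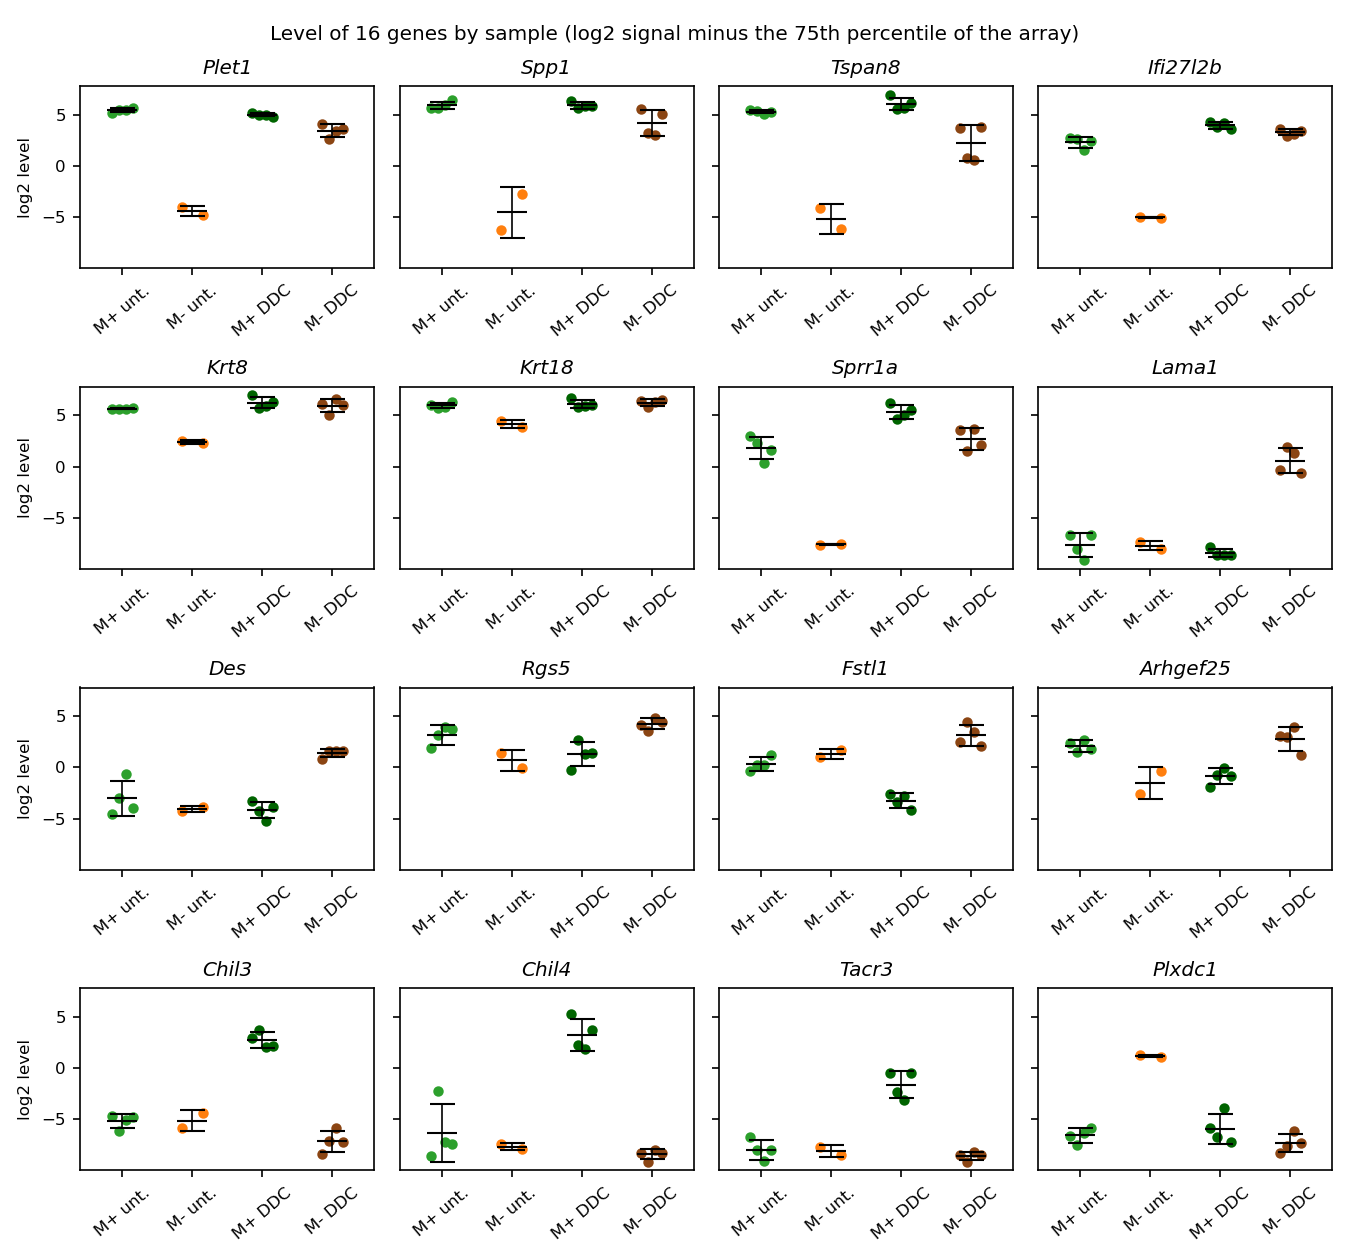
Log2 level of 16 genes in every sample (points), with the mean (long line) and SD (bars) of each group, which holds 2 samples for untreated M-133- cells and 4 for each other group. Plet1, Spp1 and the keratins rise in M-133- cells after DDC, Lama1 and Des are high in M-133- DDC cells, and Chil3, Chil4 and Tacr3 are high in M+133+ DDC cells.

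**Figure D3:**
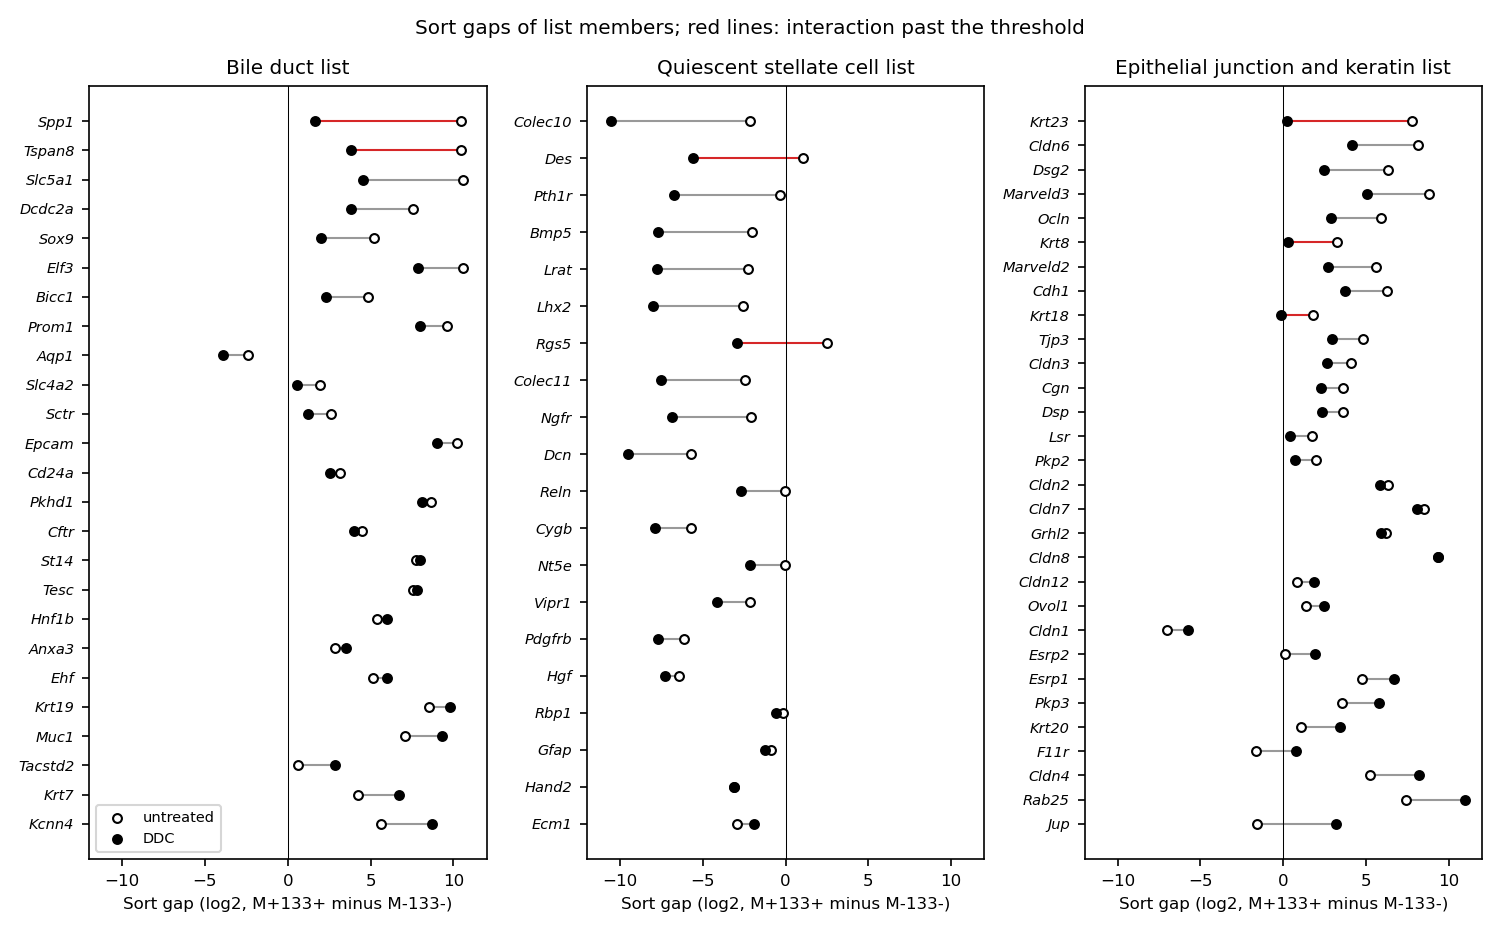
Sort gap (log2) of each tested member of 3 gene lists, bile duct (25), quiescent stellate cell (20) and epithelial junctions and keratins (30), without DDC (open) and after DDC (filled), with red lines for called interactions. Most stellate members shift to the left after DDC, with a list median of -2.16 and then -6.80, whereas most duct members stay well to the right.

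For other genes with a lower gap, M-133- cells ended above M+133+ cells. Among these, Des, Rgs4, Rgs5 and Arhgef25 rose in M-133- cells, and Des and Rgs5 are on a list of quiescent stellate cell genes described further on. Des encodes desmin, the intermediate filament of muscle and stellate cells. Des levels were -4.54, -2.99, -0.61 and -4.01 in M+133+ untreated cells, -4.28 and -3.85 in M-133- untreated cells, -3.31, -4.29, -5.23 and -3.83 in M+133+ DDC cells, and 0.79, 1.60, 1.63 and 1.63 in M-133- DDC cells. Only the M-133- DDC samples were high, and the other 3 groups overlapped. The gap was 1.03 without DDC and -5.58 after it (interaction -6.61, SE 1.26, limma adjusted p = 0.0433), a call kept in 1 of the 14 fits that leave out a sample.

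Rgs5, a G-protein regulator of pericytes, went from higher in M+133+ to higher in M-133- cells. Rgs5 levels were 1.85, 3.13, 3.98 and 3.80 in M+133+ untreated cells, 1.40 and -0.02 in M-133- untreated cells, -0.21, 2.71, 1.31 and 1.39 in M+133+ DDC cells, and 4.09, 3.59, 4.83 and 4.48 in M-133- DDC cells. Each M+133+ sample lay above both M-133- samples without DDC, and each lay below all 4 after it. The gap was 2.50 (limma adjusted p = 0.0517) and then -2.95 (adjusted p = 0.00461), with an interaction of -5.45 (SE 0.97, adjusted p = 0.0358) that a second probe gave as -5.28. The call held in 5 of 14 fits without a sample. Rgs4, of the same family, had gaps of -1.10 and -6.81.

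For Arhgef25, a guanine nucleotide exchange factor of smooth muscle, both gaps were called and had opposite signs. Arhgef25 levels were 2.39, 1.47, 2.68 and 1.83 in M+133+ untreated cells, -2.59 and -0.38 in M-133- untreated cells, -1.88, -0.73, -0.02 and -0.80 in M+133+ DDC cells, and 3.02, 3.01, 3.94 and 1.16 in M-133- DDC cells. The groups of each treatment did not overlap, in opposite order. The gap was 3.58 and then -3.64 (interaction -7.22, SE 1.05, limma adjusted p = 0.00934), and the call was lost only without M-133- untreated sample 1 among the 14 fits that leave out a sample.

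Fstl1, a secreted glycoprotein of mesenchyme, differed by a drop in M+133+ cells and a smaller rise in M-133- cells, from a mean of 1.32 to 3.12. Fstl1 levels were -0.38, 0.25, 0.24 and 1.21 in M+133+ untreated cells, 0.98 and 1.67 in M-133- untreated cells, -2.61, -3.39, -2.80 and -4.16 in M+133+ DDC cells, and 2.48, 4.42, 3.42 and 2.14 in M-133- DDC cells. The untreated sorts overlapped and the DDC sorts did not. In M+133+ cells the level fell by 3.57 (limma adjusted p = 0.0286), and the gap went from -0.99 to -6.36 (interaction -5.36, SE 0.96, adjusted p = 0.0358). Atoh8, a transcription factor, also fell in M+133+ cells, by 3.76, and its gap went from 2.62 to -1.96. The soluble guanylate cyclase subunit Gucy1b1, the collagen Col8a1 and the LIM protein Fhl1 had interactions of -8.18, -8.53 and -5.27. Other kept Gucy1b1 probes gave -1.47 and -5.50, with untreated gaps of -4.09 and -1.52 against 2.65 for the probe used. Another kept Col8a1 probe gave -3.49.

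Lama1 and Hs3st3a1 were close to background everywhere but in M-133- DDC cells. Lama1 encodes the alpha chain of the laminin of embryonic basement membranes, and Hs3st3a1 a heparan sulfate sulfotransferase. Lama1 levels were -6.69, -8.05, -9.09 and -6.69 in M+133+ untreated cells, -7.41 and -8.04 in M-133- untreated cells, -7.89, -8.69, -8.63 and -8.65 in M+133+ DDC cells, and -0.29, 1.96, 1.34 and -0.64 in M-133- DDC cells. After DDC it was at least 131-fold higher in M-133- than in M+133+ cells, and the interaction, fitted at -9.15 (SE 1.20, limma adjusted p = 0.00436), is bounded by -5.37. Hs3st3a1 levels in M-133- DDC cells were 1.10, 0.41, 2.77 and 0.24, and no array of the other 3 groups was well above background. It was at least 191-fold higher in M-133- DDC cells than in M+133+ DDC cells, and its interaction of -8.47 (limma adjusted p = 0.00387) has no bound, since both untreated groups were at background. Both genes kept their call without any 1 sample. Of 30 tested laminin, integrin and protease genes, Lama1 was the only one called, against 0.257% of all genes.

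The list of 20 quiescent stellate genes had 2 called members, Des and Rgs5, both lower, against 0.197% of all genes, and before adjustment 9 were lower and 0 higher. Its median gap was -2.16 without DDC and -6.80 after it, and its median interaction of -3.21 was the lowest of 36 lists. The interaction was negative for 19 of the 20, the exception being Ecm1; 17 gaps widened, 2 reversed and 1 narrowed. Colec10, a circulating collectin made by stellate cells, had gaps of -2.16 and -10.51 (interaction -8.35, limma adjusted p = 0.0703), and Lrat, the enzyme that esterifies retinol for storage, of -2.24 and -7.74 (interaction -5.49, adjusted p = 0.355). Genes of activated fibroblasts did not move as far: none of 24 was called in limma (3 lower and 0 higher before adjustment), and the median gap was -4.55 and then -5.82. The fibroblast interaction was negative for 16 of the 24, beside 9258 of all 23314 genes, with a list median of -0.99. Acta2, the actin of contractile myofibroblasts, went against that median. It had gaps of -0.17 and 0.08 and an interaction of 0.25 (95% interval -0.56 to 1.05).

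The summed stellate level in M-133- cells was 5.64 and 5.89 without DDC and 7.65 to 9.08 after it. In M+133+ cells it was 3.68 to 4.91 and 3.92 to 6.69, and all 20 members were above background in every group. The summed level of 19 sinusoidal endothelial markers in the same M-133- cells was 9.45 and 9.63 without DDC and 5.76 to 7.85 after it, and that of 22 vascular endothelial markers 8.60 and 8.97, then 5.34 to 7.39. The stellate sum was higher and the endothelial sums lower in the M-133- sort after DDC, in every sample. The part of these shifts in the results for Des, Rgs5, Arhgef25 and Lama1 was not tested.

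Among the 14 higher gaps, the 2 with the highest fitted values were a pair of chitinase-like genes on chromosome 3. Chil3 (Ym1) and Chil4 (Ym2) encode secreted lectins without chitinase activity that are known from alternatively activated macrophages and from neutrophil and epithelial inflammation. Chil3 levels were -4.68, -6.12, -5.07 and -4.78 in M+133+ untreated cells, -5.83 and -4.43 in M-133- untreated cells, 2.98, 3.72, 2.03 and 2.17 in M+133+ DDC cells, and -8.43, -7.16, -5.84 and -7.23 in M-133- DDC cells. Only the M+133+ DDC samples were high. The gap was -0.03 and then 9.89 (950-fold), an interaction of 9.92 (SE 1.12, limma adjusted p = 0.00167) that kept its call without any 1 sample. The M-133- DDC levels lay near background, so the 950-fold is a fitted value that rests on dim signals and is not a measured size.

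Chil4 levels were -8.57, -2.19, -7.23 and -7.40 in M+133+ untreated cells, -7.44 and -7.94 in M-133- untreated cells, 5.26, 2.22, 1.84 and 3.75 in M+133+ DDC cells, and -8.28, -9.13, -8.02 and -8.30 in M-133- DDC cells. It was high in the same group as Chil3, with M+133+ untreated sample 2 above the other untreated samples. No M-133- array was well above background, so the gap after DDC was at least 824-fold. The interaction of 10.35 (SE 1.83, limma adjusted p = 0.0358) has no bound and was called in 4 of 14 fits without a sample.

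Tacr3, the receptor for neurokinin B, had the same pattern at a lower level. Tacr3 levels were -0.48, -2.33, -3.16 and -0.46 in M+133+ DDC cells, while the other 10 samples lay between -9.19 and -6.69. Its gap after DDC was at least 28.1-fold, with a fitted interaction of 6.84 (SE 1.20, limma adjusted p = 0.035) and of 6.98 by a second probe.

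Levels of the macrophage list, summed over 21 markers, were 3.94 to 4.80 in M+133+ untreated, 6.21 and 6.26 in M-133- untreated, 4.75 to 6.28 in M+133+ DDC and 4.99 to 5.90 in M-133- DDC cells. None of the 21 had a called interaction in limma (0 higher and 1 lower before adjustment), and their median was 0.90. At least 19 of them were above background in each group. The 6 neutrophil markers summed to -2.12 to 3.69, -1.61 to 1.32, -3.20 to 1.15 and -3.44 to 0.99 in the same order. The macrophage sum in M+133+ cells was thus higher on the whole after DDC, with overlap of the ranges at 4.75 to 4.80, and in M-133- cells it was lower. The part of these markers in the Chil3 and Chil4 results was not tested.

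Of the other higher gaps, that of Plxdc1 came with a fall in M-133- cells. Plxdc1, a transmembrane protein of tumour endothelium, had levels of -6.61, -7.52, -6.32 and -5.88 in M+133+ untreated cells, 1.24 and 1.10 in M-133- untreated cells, -5.87, -6.72, -3.89 and -7.18 in M+133+ DDC cells, and -8.30, -7.58, -6.12 and -7.36 in M-133- DDC cells. Only the M-133- untreated samples were high. The gap was -7.75 and then 1.42, an interaction of 9.17 (SE 1.23, limma adjusted p = 0.00436) bounded by 8.26, and the call held without any 1 sample. Mbnl3, a splicing regulator, had an interaction of 7.86, with a DDC difference of -5.09 in M-133- and 2.77 in M+133+ cells. Kti12, a factor in tRNA modification, had an interaction of 4.44, with the larger DDC difference in M+133+ cells (2.61, against -1.83 in M-133- cells). None of these 4 DDC differences was called. The mean level in M-133- cells was lower after DDC for Plxdc1, Mbnl3 and Kti12, as were the endothelial sums given above, and the part of endothelial cells was not tested. Just outside the threshold were Stox1 at 7.25 (adjusted p = 0.0516), Acsl1 at 3.74 (0.052), Gab3 at 5.43 (0.0544) and Dusp4 at 4.82 (0.0544).

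Of the 36 gene lists, 29 had no called member in limma. Before adjustment their 545 tested entries held 33 higher and 33 lower gaps past 0.05, beside 1463 and 865 of all 23314 genes. Their median interactions ran from -1.34, for 27 interferon-response genes, to 1.53, for 16 genes of the insulin-like growth factor axis, beside 0.38 over all genes. Interferon genes had median gaps of -0.55 and -1.73; Ifit1, a blocker of viral translation, came nearest with an interaction of -5.98 (limma adjusted p = 0.0795). One member each was called on 4 lists, all lower, beside 0.197% of all genes: Fstl1 of 16 targets of the Hippo effector YAP, Ptgr1 (an NADPH-dependent reductase) of 24 antioxidant genes, the immediate-early factor Egr2 of 21 and Lama1. The 24 mitosis genes had median gaps of 0.52 and 0.36, but their interactions ran from -3.52 to 3.17 and 10 of the 24 gaps changed sign, with none called in limma (0 higher and 1 lower before adjustment). Their summed level was higher after DDC in both sorts (3.30 to 5.14 and 6.08 to 7.05 in M+133+ cells, 2.35 to 4.42 and 6.51 to 7.56 in M-133- cells). The lists were not tested as sets.

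**Figure D4:**
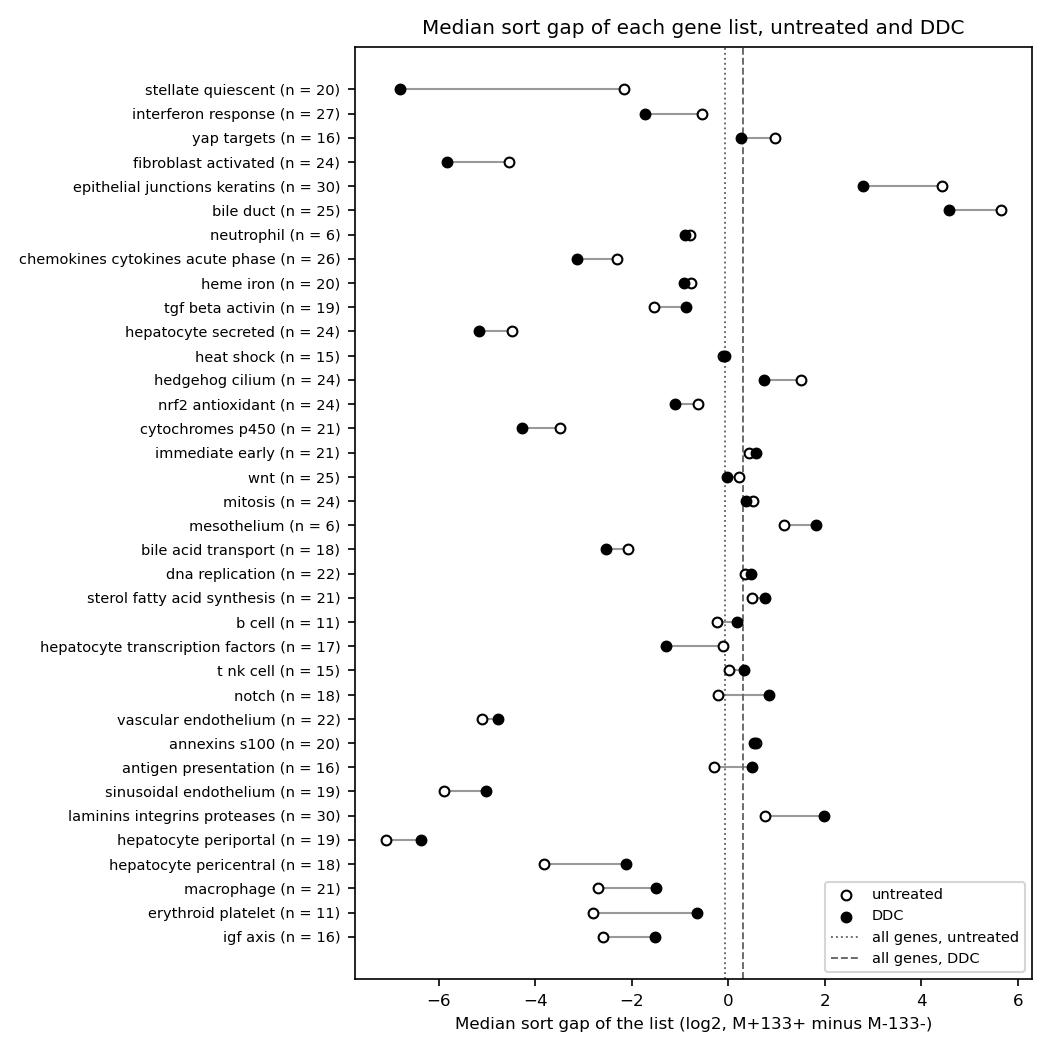
Median sort gap (log2) of each of 36 gene lists without DDC (open) and after DDC (filled), with dotted and dashed lines for the medians over all genes, -0.07 and 0.31. The quiescent stellate list has the longest move to the left, from -2.16 to -6.80, and the bile duct and junction lists stay right of 0.

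The titles carry a leading number shared by an M+133+ and an M-133- sample for 2 untreated and 4 DDC pairs; what it marks is not stated. Pair gaps come from the same samples and values as the interaction that chose the genes, so their direction adds no separate evidence. For all 46 lower and all 14 higher calls, the 2 untreated pair gaps did not overlap the 4 DDC pair gaps, beside 6.8% and 12.7% of all genes in those directions. The Plet1 pair gaps were 9.52 and 9.95 without DDC and 0.89 to 2.22 after it, those of Rgs5 2.58 and 1.88, then -5.04 to -1.38, and those of Chil3 0.76 and -0.25, then 8.82 to 12.15. With that number as a fixed block 1 gene was called, Plet1. No slide held all 4 groups or both DDC sorts. The M+133+ DDC arrays were on slides 3 and 4, and the M-133- DDC arrays on slides 1, 2 and 5. Every DDC gap and DDC pair gap thus lies between slides, and sort and slide cannot be told apart in it directly. With the array slide as a fixed block, the DDC sorts are compared only through the untreated arrays. In that fit 10 of the 60 were called again, among them Plet1, Chil3, Lama1, Ifi27l2b, Tmsb10 and Tspan8. Of the 60 genes, 15 were called without any 1 sample. Of these, Chil3, Spp1, Enah, Plet1, Ifi27l2b and Tmsb10 had at least 1 array above background in each of the 4 groups.

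Other probes for the called genes mostly had the same sign: 30 of 35 further probes kept after the filter, from 21 genes. The 5 of opposite sign belonged to Lmo7 (0.88, 2.37 and 2.12, against -4.96 for the probe used), Tnfrsf21 (0.91 against -7.39) and Hspb2 (0.26 against -7.97). The calls of these 3 genes thus depend on the probe used, though another kept Tnfrsf21 probe gave -6.64. Probes of the same sign could differ in size, as for Cdkl2 (-0.54 against -6.52) and Pdgfa (-1.21 against -3.00). Called genes outside those 21 had no further kept probe, so each of their calls rests on 1 probe. In the authors' deposited table, where a negative fold means lower in M-133- cells, Plet1 was at -1000 without DDC and -3.571 after it, and Chil3 at 1.319 and -1000. Several called genes stand at exactly -1000 in the authors' deposited table, which may be a limit of that table, so this value is not read as a measured size. All 58 called genes with both folds readable in the authors' deposited table differed between treatments in the same direction as here. Those folds come from the same arrays that chose the genes, so their direction adds no separate evidence.

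Promoters are shown for Plet1 and Sprr1a, 2 of the 4 genes with a lower gap (with Ddr1 and Cp) whose promoter holds the AP-1 motif TGANTCA on either strand. They are from RefSeq on GRCm38.p6 and run from 250 bases before to 50 after the start. Plet1 lies at chr9:50494275-50494574 (plus), with the match, in capitals, at -144. Sprr1a lies at chr3:92485832-92486131 (minus), with matches at -146 and -116.
Plet1 promoter: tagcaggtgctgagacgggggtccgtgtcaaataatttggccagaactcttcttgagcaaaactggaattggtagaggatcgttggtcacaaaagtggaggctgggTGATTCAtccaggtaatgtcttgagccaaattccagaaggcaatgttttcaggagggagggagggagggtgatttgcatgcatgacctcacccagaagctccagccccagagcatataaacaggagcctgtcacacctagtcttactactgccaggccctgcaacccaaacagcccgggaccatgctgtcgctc
Sprr1a promoter: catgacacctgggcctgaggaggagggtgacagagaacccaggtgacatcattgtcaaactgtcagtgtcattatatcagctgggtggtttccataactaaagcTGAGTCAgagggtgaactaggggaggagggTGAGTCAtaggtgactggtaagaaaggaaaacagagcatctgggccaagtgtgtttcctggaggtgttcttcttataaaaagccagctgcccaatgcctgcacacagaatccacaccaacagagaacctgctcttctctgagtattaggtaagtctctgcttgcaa

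Such a match occurs in 7.81% of 32851 promoters of that length, and in 4 of 53 promoters (7.55%) of the 36 genes with a lower gap that could be matched. The TEAD motif GGAATG occurs in 14.7% of all promoters and in 5 of the 53 (9.43%). Neither share in the called genes exceeded that of all promoters, and a match is a description of the letters alone.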

How the data were processed

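RNA from sorted cells was amplified, labelled with Cy3 and hybridised to 1-colour Agilent mouse arrays, per the labels. The deposited scanner files hold intensity values per spot, of which the processed one had its background removed by Agilent Feature Extraction 10.5.1.1, per the file headers. The authors' deposited table gives signed linear fold scores between groups; the submitters' processing notes name limma, and its settings are not given in the sources used here. The log2 processed signal minus the array's 75th percentile over non-control probes was computed, and repeat arrays of a sample were averaged. Probes were kept when at least a 0.5 share of samples of any group was well above background (34595 of 41174), and the brightest probe stood for its gene. Of all probes, 32831 were named through accessions or symbols, and 8343 kept the name in the file.

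Group means of all 14 samples were fitted with limma 3.58.1 in R 4.3.3 (intensity trend, Benjamini-Hochberg adjustment over 23314 genes, 2-sided, called at an adjusted p under 0.05), after tests on simulated data. P-values measure the spread between these samples. For 37 genes, 38 sample values were missing and left out. Genes named are Prom1, the 12 called genes with a symbol of highest and of lowest interaction (filled by lowest p), the 4 of lowest p in each class of gap change, and up to 4 of each list. Further single genes and both motifs were picked with the values in view. The members and lists were chosen with earlier results of these data known. Of the called genes, 1 is not reported here by name. Tables were made in Python 3.11.15 with pandas 2.3.3. Tried alternatives comprise 14 fits that leave out a sample and 15 others. Because M-133- untreated holds 2 samples, the number of arrays limits the precision.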

Additional observations from a re-analysis of the deposited data

Results flagged for a closer look

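Every called interaction is by its nature a difference of the DDC effect between the sorts, tested in limma, and 59 of the 60 are therefore listed here with their log2 values. The lower gaps of Bex2 (-9.60), Lama1 (-9.15), Osbpl3 (-9.09), Spp1 (-8.78), Col8a1 (-8.53), Hs3st3a1 (-8.47), Enah (-8.45), Map2 (-8.38), Plet1 (-8.27), Gucy1b1 (-8.18), Hspb2 (-7.97), Krt23 (-7.52), Tnfrsf21 (-7.39), Arhgef25 (-7.22), Bex1 (-7.16), Sprr1a (-6.81), Ifi27l2b (-6.65), Tspan8 (-6.63), Des (-6.61), Rab27b (-6.47), Rgs4 (-5.71), Rgs5 (-5.45), Ddr1 (-5.40), Fstl1 (-5.36), Fhl1 (-5.27), Lmo7 (-4.96), Atoh8 (-4.58), Tm4sf4 (-3.35), Ptgr1 (-3.34), Egr2 (-3.09), Krt8 (-2.96), Tmsb10 (-2.80) and Krt18 (-1.95) belong to genes described above. Further lower gaps were those of Tbx20, a T-box transcription factor (-7.35), Dab1, an adaptor of reelin signalling (-6.75), Thsd7a (-6.66), Cdkl2 (-6.52), Tmem141 (-5.28), the adaptor Nck2 (-4.09), the growth factor Pdgfa (-3.00), Cp, which encodes ceruloplasmin (-2.92), and the transport protein gene Mal2 (-2.54). Transcripts known by clone names were 2900006A17Rik (-8.78), ENSMUST00000114500 (-8.37), CN524910 (-7.53) and AK052617 (-7.21).

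The higher gaps were those of Chil4 (10.35), Chil3 (9.92), Plxdc1 (9.17), Mbnl3 (7.86), Tacr3 (6.84) and Kti12 (4.44), and of the clone-named ENSMUST00000109982 (9.75), AK038029 (9.69), ENSMUST00000023427 (8.37), BB505010 (6.57), NAP124210-1 (5.83), AK044294 (4.98) and LOC100046039 (3.81).

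A single sample stood apart from the other 3 of its group in 6 of 90 groups of 4, and chance gives about 1 in 20. The 90 groups cover only part of the called genes. Among M+133+ untreated samples these were sample 1 for BB505010 (-8.68, others -8.98 to -8.95) and Egr2 (5.24, others 4.49 to 4.61). Sample 4 was the one for Krt23 (4.46, others 3.76 to 3.83). In M+133+ DDC cells it was sample 1 for Lama1 (-7.89, others -8.69 to -8.63). M-133- DDC samples 4 and 1 were those for Kti12 (-0.37, others -0.86 to -0.78) and Des (0.79, others 1.60 to 1.63). The BB505010 and Lama1 values lie near background.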

How the results depend on the processing

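Against 60 called interactions (46 lower, 14 higher; 20 narrowed, 6 widened, 34 reversed), leaving out one sample gave 18 to 105 calls, 14 to 50 lower, 4 to 75 higher, 8 to 37 narrowed, 1 to 7 widened and 8 to 64 reversed; untreated gaps numbered 818 to 2206 and DDC gaps 2403 to 2963. The cause of the moves below was not tested. Quantile normalization gave 37 narrowed, scaling by the array median 5 higher (90.6% lower), and normexp 27 lower (65.9%) and 8 narrowed. Requiring probes above background in all 4 groups left 39 calls, 6 higher and 1 widened. Raising values to the background floor gave 93 calls, 39 higher (58.1% lower) and 33 narrowed. The last repeat array alone gave 92 calls, 39 higher (57.6% lower) and 55 reversed. Without the intensity trend there were 37 calls, 25 lower, 11 narrowed and 19 reversed.

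The description's replicate number as a block gave 24 calls, 20 lower and 4 higher, with 13 narrowed, 1 widened and 10 reversed. Same-numbered samples correlated at -0.153 to 0.076 in their deviations from the group means. In groups this small, such correlations cannot settle whether same-numbered samples share more than a number. The title number as a fixed block gave 1 call, lower and narrowed, with 0 higher, 0 widened and 0 reversed, and 822 untreated gaps (correlations -0.013 to 0.113); as a random block it gave 26 higher and 10 widened. At an unadjusted p under 0.05, limma with that fixed block had 675 lower and 1206 higher gaps. The slide as a fixed block gave 11 calls, 10 lower and 1 higher (90.9% lower), 5 narrowed, 1 widened and 5 reversed, with 1143 DDC gaps. Because no slide held both DDC sorts, that fit compares them only through the untreated arrays.

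Single genes that changed sign were Prom1 (0.65 with normexp, 3.02 with the strict filter, 0.69 with probes averaged), Hspb2 (0.26, strict filter), Lmo7 (0.10) and Postn (0.0040) with probes averaged, Ltf (1.42, title number block) and Cxcr2 (-0.38 without M-133- untreated sample 1, and 4.45 without sample 2). The all-gene median interaction was 0.38, and -0.03, -0.16 and 0.76 with quantile, array-median and normexp values. Over all alternatives, the genes called above kept sign and call in 1037 fits, lost the call in 683 and changed sign in 2; those not called stayed so in 1770, passed in 39 and changed sign in 6. Signal over background is the limit for 11 lower and 7 higher calls, which have a group with no array above background and so at best a bound.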

Other observations

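Beyond the genes above, the leading members of several lists came near the threshold without passing it in limma. Lcn2, an iron-binding acute-phase protein, had a gap of 5.58 without DDC and -0.32 after it (interaction -5.90, adjusted p = 0.098), with levels of -7.62 and -5.32 in untreated and 2.34 to 3.04 in DDC M-133- cells. Igfbp4, a binding protein of insulin-like growth factors, had gaps of -6.68 and -2.99 (interaction 3.69, adjusted p = 0.0614). Mcm3, a subunit of the replicative helicase, had gaps of -1.59 and 1.02 (interaction 2.60, adjusted p = 0.0874). Blk, a kinase of B cells, had gaps of -4.43 and 0.71 (interaction 5.14, adjusted p = 0.0924). Slc51b, a bile acid exporter subunit, had gaps of -1.46 and -5.81 (interaction -4.35, adjusted p = 0.142), and its M-133- DDC samples, at 0.64, 1.42, 0.11 and 0.06, lay above the other 10 samples.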
